A study of Mus musculus with 12 samples.

Results

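Expression of the proteasome genes was examined in whole small intestine of mice that lacked or carried the nuclear receptor PPARα, either fed or fasted for 24 h. The genes were chosen by name. Every probe set was taken whose only gene symbol begins with Psma, Psmb, Psmc, Psmd, Psme, Psmf or Psmg followed by a digit, with the inducible subunits Psmb8, Psmb9 and Psmb10 left out. This rule gave 82 probe sets of 45 genes, out of 22690 probe sets and 12394 named genes on the Affymetrix mouse 430A array. Of the 45 genes, 43 encode subunits, regulators or assembly factors of the proteasome. The other 2, Psme3ip1 and Psmc3ip, encode proteins that bind a subunit and are named after it. Psme2 was not covered, because its 1 probe set also lists a second gene, and it was not analysed here.

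The 12 arrays fell into 4 groups of 3 biological replicates: PPARα-null mice fasted for 24 h, PPARα-null mice fed, wild-type (WT) mice fasted for 24 h and WT mice fed. All mice were males of 14 weeks. The PPARα-null mice were of strain 129S4/SvJae and the WT mice of strain 129S1/SvImJ, as the design text and the labels of the fasted samples give them (the fed samples are labelled 129Sv), so the missing receptor and the substrain cannot be told apart. PPARα was absent from every tissue of the null mice, and each array measured the whole length of the small intestine with all of its cell types. The design text names AIN93M as the diet and the study's methods name a standard chow. The free-text label of the WT fasted samples calls them knockout, against their title and strain. Ppara itself read 10.96 to 13.2 in PPARα-null fasted mice, 6.84 to 7.5 in PPARα-null fed mice, 30.8 to 58.7 in WT fasted mice and 19.9 to 35.9 in WT fed mice and was thus lower in both PPARα-null groups. No source used here places its probe set relative to the deletion.

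The proteasome is the protease that degrades most short-lived, damaged and ubiquitin-tagged proteins of the cytosol and nucleus. Its barrel-shaped 20S core is built of outer alpha rings, which gate the entrance, and inner beta rings, which carry the cutting sites. The 19S regulatory particle sits on the core: its base holds a ring of ATPases that unfold the substrate, and its lid holds the enzyme that removes ubiquitin. In the gut, the epithelium is renewed within days and the mass of the mucosa falls during fasting, and in muscle wasting the genes of this pathway are known to be induced. PPARα is activated by fatty acids and induces genes of fatty acid oxidation in fasted liver and intestine.

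RefSeq promoter sequences were matched for 37 of the 45 genes (build GRCm38.p6, 250 bases before to 50 bases after the start), and 4 motifs known from promoters of this kind were searched on both strands. A gene counted once if any of its windows matched, and some genes have several windows. The antioxidant response element core TGACNNNGC, which Nfe2l1 and related factors bind, was found for 6 of 37 genes (16.2%). It was found for 14.0% of all 27025 genes with a promoter and for 17.3% of the 4785 expressed here. The CCAAT box was found for 14 genes (37.8%), against 41.1% of all genes and 42.7% of expressed genes. CCGGAAG, the core bound by ETS factors, was found for 16 genes (43.2%), against 9.93% of all genes and 22.6% of expressed genes. AGGTCANAGGTCA, the direct repeat to which PPARα and its partner bind, was found for 0 of 37 genes, against 0.0481% of all genes and 0.0209% of expressed genes. A match is only a match of letters, and no binding was measured. The 250 bases before the start are shown for 4 genes on which the results below turn, 5′ to 3′ on the strand of the gene, with the matched motifs in capitals. Psmb5 (chr14:54617996-54618245, minus strand) encodes a cutting subunit and carries the antioxidant response element core 47 bases before its start. Psmd12 (chr11:107479278-107479527, plus strand) encodes a lid subunit and carries that core in reverse 247 bases before and CCGGAAG in reverse 17 bases before the start. Psma1 (chr7:114276117-114276366, minus strand) encodes an alpha ring subunit and carries the CCAAT box at 126 bases, in reverse, and at 98 bases before the start. Psmg1 (chr16:95990961-95991210, minus strand) encodes an assembly chaperone of the core and carries CCGGAAG 69 bases before the start.
Psmb5: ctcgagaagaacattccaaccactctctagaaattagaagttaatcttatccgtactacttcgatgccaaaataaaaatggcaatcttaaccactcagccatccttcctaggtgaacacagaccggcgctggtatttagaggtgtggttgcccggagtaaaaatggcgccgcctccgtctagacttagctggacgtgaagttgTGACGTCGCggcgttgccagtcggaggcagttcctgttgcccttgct
Psmd12: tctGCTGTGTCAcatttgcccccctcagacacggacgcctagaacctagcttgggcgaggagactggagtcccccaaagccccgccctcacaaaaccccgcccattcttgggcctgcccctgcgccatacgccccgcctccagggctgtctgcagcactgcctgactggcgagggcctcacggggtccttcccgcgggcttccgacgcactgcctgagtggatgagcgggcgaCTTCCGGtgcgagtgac
Psma1: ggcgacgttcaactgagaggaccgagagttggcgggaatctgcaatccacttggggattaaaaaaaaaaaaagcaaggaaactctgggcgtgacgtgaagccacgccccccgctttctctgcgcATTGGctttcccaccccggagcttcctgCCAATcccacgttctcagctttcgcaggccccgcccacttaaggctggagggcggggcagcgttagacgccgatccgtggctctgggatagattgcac
Psmg1: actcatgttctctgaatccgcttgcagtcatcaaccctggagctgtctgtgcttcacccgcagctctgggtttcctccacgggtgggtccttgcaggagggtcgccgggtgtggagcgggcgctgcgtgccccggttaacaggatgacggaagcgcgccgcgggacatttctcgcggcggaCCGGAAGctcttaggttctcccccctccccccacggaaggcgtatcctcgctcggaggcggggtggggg

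Values are intensities on a linear scale, and each gene is represented by its probe set with the highest mean over the 12 arrays unless another is named. The fasted arrays read lower as a whole. The median of the probe sets that read over 20 in WT fed mice was 98.6 to 99.2 in PPARα-null fasted mice, 128 to 129.5 in PPARα-null fed mice, 99.4 to 103 in WT fasted mice and 122 to 129 in WT fed mice. This common shift, -0.32 on the log2 scale, was taken off every difference between fasted and fed arrays, so such differences are relative to the typical expressed probe set, while per-array values are given as deposited. The deposited fed arrays carry up to 2 decimals and the fasted arrays 9, so the fasting state and the processing of the arrays cannot be told apart. A call needs p under 0.01 before adjustment together with a fold of more than 1.3, or 0.38 on the log2 scale, and adjusted p-values run over all probe sets kept. Errors of log2 differences are standard errors from the fit across all 12 arrays. In whole tissue, fewer cells of a type and less RNA per cell cannot be told apart. Summed enterocyte markers, 6 of 8 on the array, read 39067 to 40785 in PPARα-null fasted mice, 43711 to 44382 in PPARα-null fed mice, 41672 to 44029 in WT fasted mice and 46444 to 48220 in WT fed mice, as deposited. Summed markers of exocrine pancreas, 8 of 11 on the array, read 580 to 21004 in PPARα-null fasted mice, with replicate 2 low at 580, against 656 to 1110 in PPARα-null fed mice, and 8835 to 17943 in WT fasted mice, against 577 to 1841 in WT fed mice. Summed lymphocyte markers, 6 of 7 on the array, read 225 to 278 in PPARα-null fasted mice, 677 to 777 in PPARα-null fed mice, 491 to 517 in WT fasted mice and 814 to 924 in WT fed mice. Summed smooth muscle markers, 5 of 5 on the array, read 2676 to 2973 in PPARα-null fasted mice, 3646 to 4074 in PPARα-null fed mice, 1809 to 2896 in WT fasted mice and 3873 to 4624 in WT fed mice, and upon fasting 0 of 5 were called in PPARα-null mice and 3 of 5, all lower, in WT mice. Summed proliferation markers, 4 of 5 on the array, read 1049 to 1155 in PPARα-null fasted mice, 1974 to 2256 in PPARα-null fed mice, 1183 to 1475 in WT fasted mice and 1868 to 2080 in WT fed mice. The part of these cells in the changes of proteasome genes was not tested. Counts of called genes are also given without the 2 PPARα-null fasted arrays that read high for pancreas. All 3 WT fasted arrays also read high and stay in, so that setting cannot bear on the changes in WT mice. Between the genotypes in fasted mice it sets 1 array low for pancreas against 3 that read high.

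Of the 45 genes, 40 had a probe set that read over 20 in WT fed mice and entered the comparisons of fasting. Psmd9 passed only through the PPARα-null fasted group. The remaining 4 did not exceed a mean of 20 in any group: Psma8, the alpha subunit of testis, Psmc3ip, a partner in meiotic recombination, and the chaperones Psmg3 and Psmg4. The filter therefore kept 58 probe sets for fasting and 59 where any group could pass.

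Upon fasting, PPARα-null mice had 10 of 40 proteasome genes called, 2 higher and 8 lower, where 50.4% of all genes tested were called in this comparison (21.3% higher and 27.8% lower). WT mice had 6 of 40 called, all lower, where 22.8% of all genes were called (12.8% higher and 9.83% lower). The share of proteasome genes called was thus 25% in PPARα-null mice and 15% in WT mice, below the background of each comparison when both directions are counted. As the WT calls were all lower, their 15% lay above the 9.83% of all genes called lower, a direction chosen after the calls were seen. In PPARα-null mice the 8 of 40 called lower lay below the 27.8% of all genes. With 1 probe set per gene, 4 of 40 were called in WT mice, all lower, and the share of all genes in that setting was not computed. The count in WT mice was 3 without WT fasted replicate 1 or 3 and 2 without WT fed replicate 2, where 8.18% to 8.76% of all genes were called lower. The median log2 difference of the 40 genes was -0.11 in PPARα-null mice, where all genes had -0.05, and -0.13 in WT mice, where all genes had 0.03. Of the 40 genes, 29 lay below 0 in PPARα-null mice and 30 in WT mice, against 53.8% and 46.8% of all genes. Without the removal of the common shift, 26 genes were called in each genotype, 1 higher and 25 lower in PPARα-null mice and 26 lower in WT mice, where 59.6% of all genes were called in PPARα-null mice (9.23% higher and 49.4% lower) and 41.8% in WT mice (3.21% higher and 38.5% lower). With PPARα-null fasted replicates 1 and 3 left out, so that 1 array stood for that group and its spread was taken from the other groups, 9 genes were called in PPARα-null mice, where 38.8% of all genes were, and 4 in WT mice, where 22.2% were. The median of PPARα-null mice was then -0.019, with 22 of 40 genes below 0, and it was -0.046, with 23 below 0, when each array was centred on its own median.

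**Figure D1:**
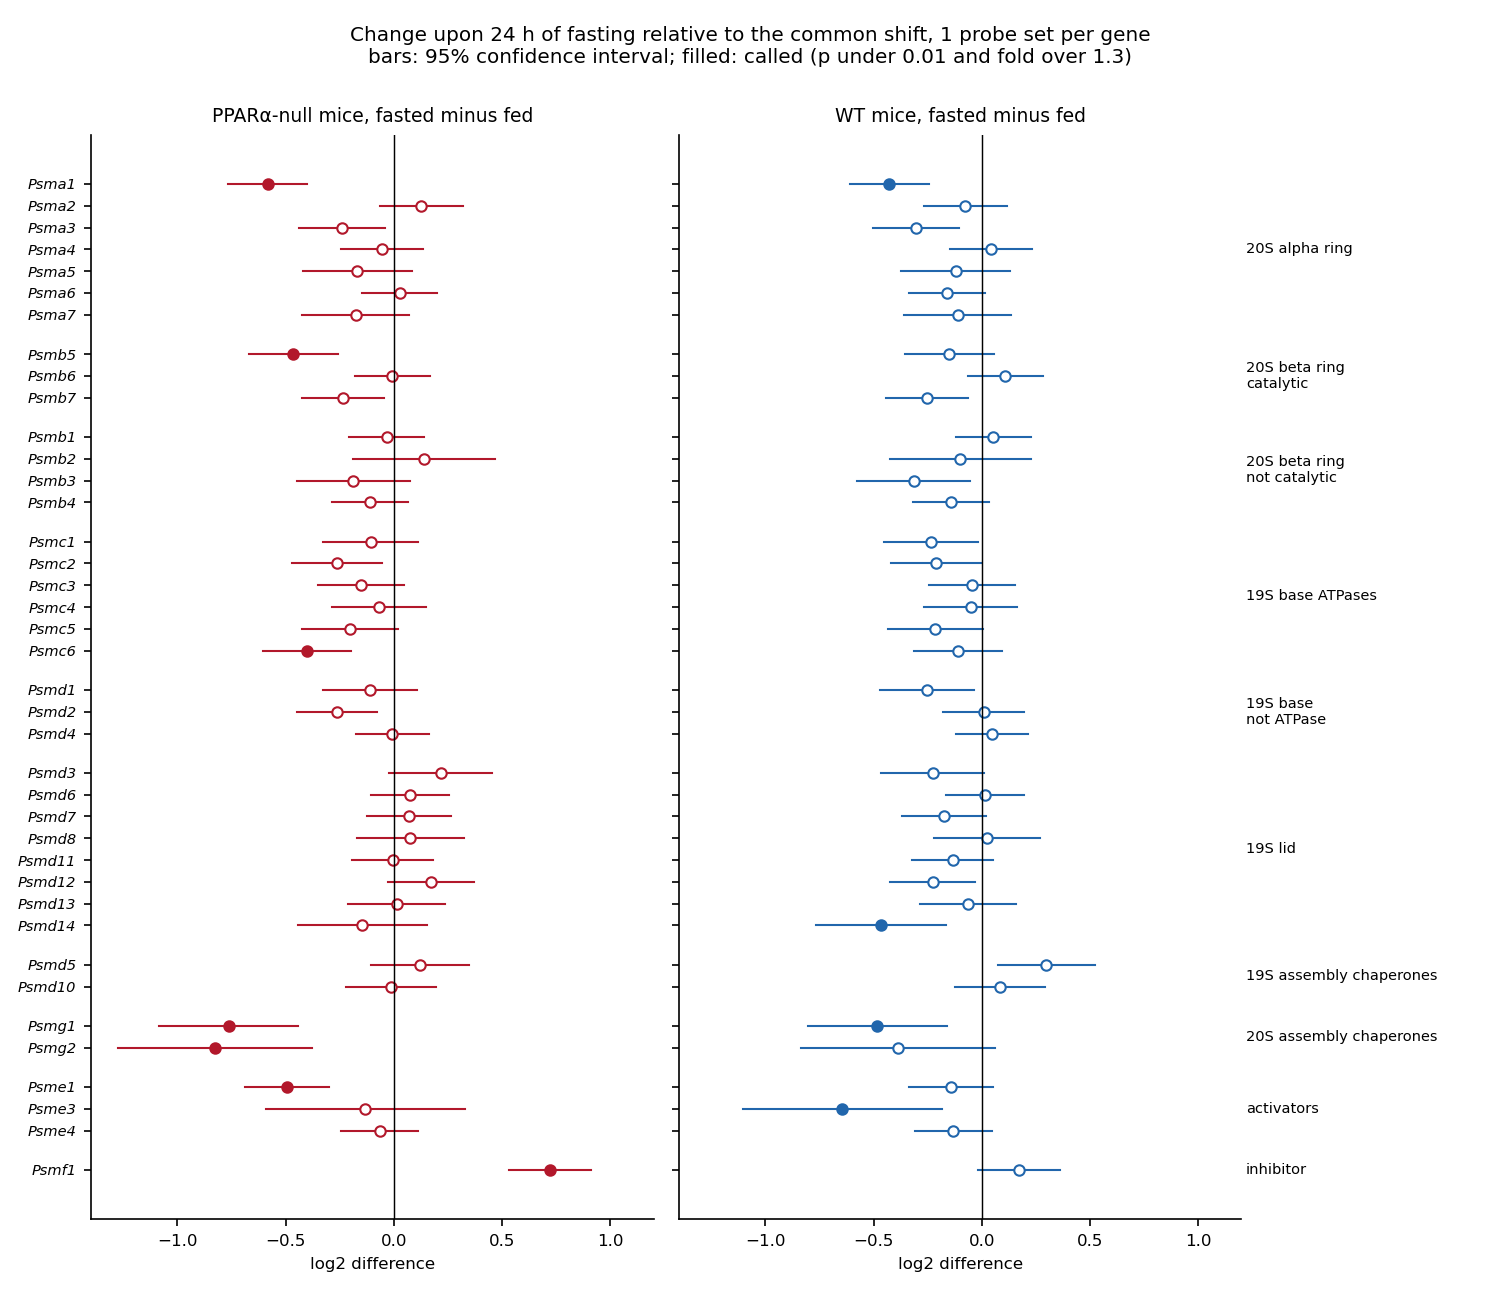
Log2 difference of fasted minus fed mice, relative to the common shift, for 1 probe set per gene, in PPARα-null mice (left) and WT mice (right). Points are estimates of the fit with 95% confidence intervals, filled where called, and genes are grouped by role. Most intervals cross 0, Psmf1 stands at 0.72 in PPARα-null mice, and Psmg1 and Psmg2 lie at -0.76 and -0.83 there. Psme3ip1, at -2.10 in PPARα-null mice and -0.09 in WT mice, is not drawn because it is no subunit.

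In the alpha ring, Psma1 and Psma5 fell in both genotypes. Psma1, picked for display after its values were seen, read 429, 473 and 445 in PPARα-null fasted mice, 790.4, 849 and 872 in PPARα-null fed mice, 494, 576 and 516 in WT fasted mice and 912, 849.7 and 891 in WT fed mice. The fed arrays all exceeded the fasted arrays in each genotype, and the relative log2 difference was -0.58 ± 0.08 in PPARα-null mice and -0.43 ± 0.08 in WT mice (adjusted p = 8.73e-05 and 0.00381, limma). Psma5 was called through its second probe set (1424681_a_at) at -0.70 in PPARα-null mice and -0.41 in WT mice, while its first (1434356_a_at) gave -0.17 and -0.12 and was not called. In WT mice that call ended without WT fasted replicate 1 (-0.33) or WT fed replicate 2 (-0.34). Psma3 reached -0.24 and -0.31, below the fold required. On their first probe sets, the other alpha subunits Psma2, Psma4 and Psma7 lay between -0.18 and 0.13 in both genotypes and were not called. Psma6 counted as higher in PPARα-null mice only through 1435317_x_at, a probe set near the limit of 20, which read 29.6, 29.9 and 25.3 in PPARα-null fasted mice, against 26.4, 25.5 and 26.8 in PPARα-null fed mice. Its deposited values overlap between the states, the relative difference was 0.42 and 0.10 as deposited, and the other probe sets of Psma6 gave 0.03 and 0.07.

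Among the cutting subunits only Psmb5, the chymotrypsin-like site, was called. Psmb5 read 423, 381 and 405 in PPARα-null fasted mice, 649, 752 and 679 in PPARα-null fed mice, 436, 425 and 450.4 in WT fasted mice and 535, 662 and 623 in WT fed mice. Its relative log2 difference upon fasting was -0.46 ± 0.10 in PPARα-null mice (adjusted p = 0.00119, limma) and -0.15 ± 0.10 in WT mice, with the WT arrays overlapping after the shift was removed. The difference between these responses was -0.31 ± 0.13 and did not pass (adjusted p = 0.111). Psmb6, the caspase-like site, read 559, 600.0 and 595 in PPARα-null fasted mice, 743, 751 and 701 in PPARα-null fed mice, 536, 582 and 574 in WT fasted mice and 609, 695 and 649 in WT fed mice. Relative to the common shift it stayed close to 0, at -0.01 in PPARα-null mice (95% confidence interval -0.18 to 0.16) and 0.11 in WT mice (-0.06 to 0.28). Psmb7, the trypsin-like site, read 787, 946 and 816 in PPARα-null fasted mice, 1231, 1191 and 1299 in PPARα-null fed mice, 764, 843 and 753 in WT fasted mice and 1167, 1168 and 1158 in WT fed mice. The fed arrays lay above the fasted arrays throughout, but the relative differences of -0.23 ± 0.09 and -0.25 ± 0.09 missed the fold required.

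**Figure D2:**
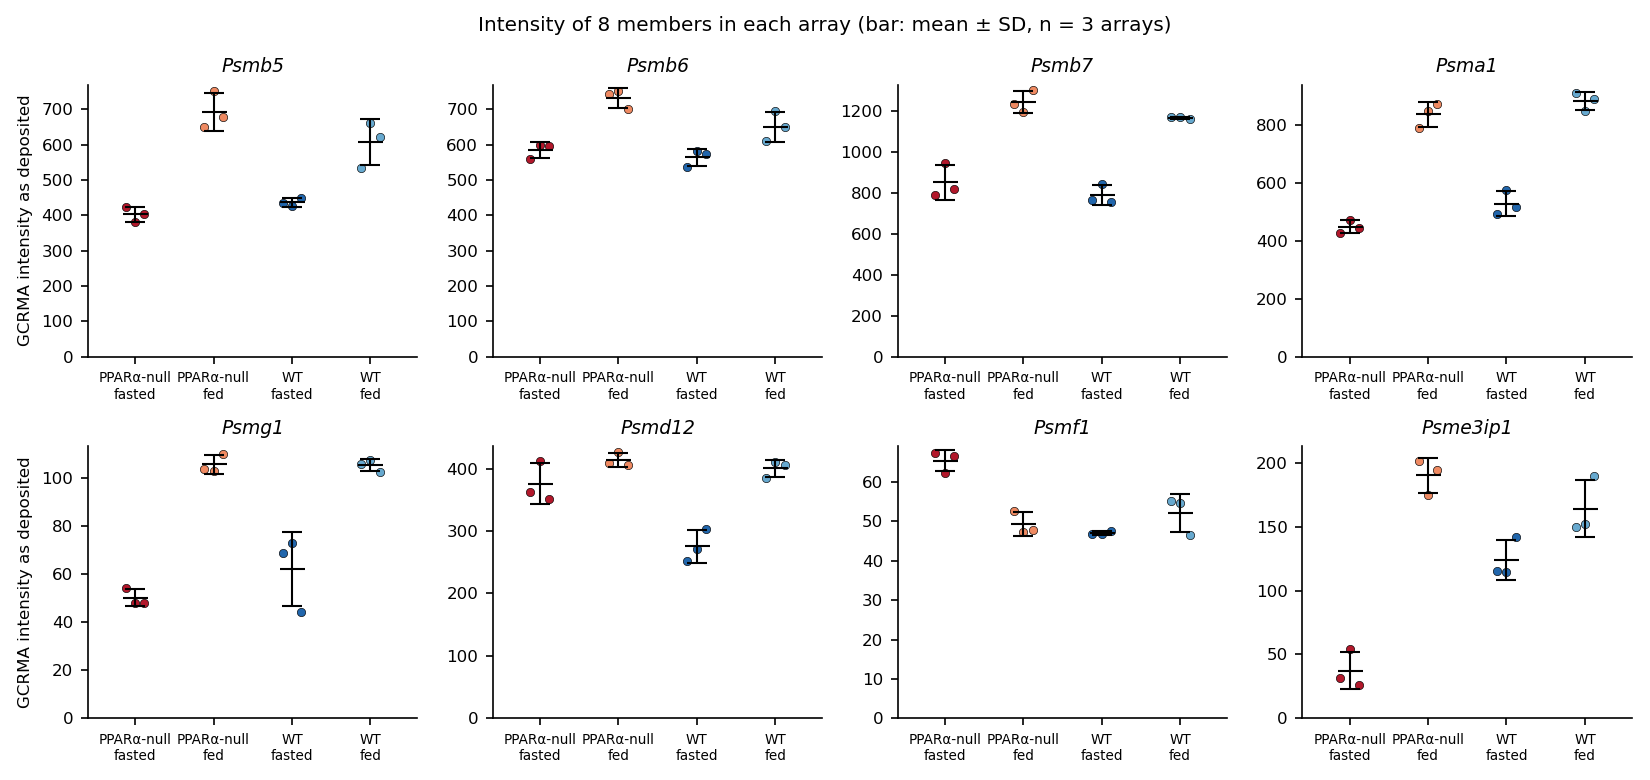
Deposited intensity on a linear axis from 0 of 8 proteasome genes in each of the 12 arrays. Points are arrays and bars are the mean ± SD of 3 arrays, for PPARα-null fasted, PPARα-null fed, WT fasted and WT fed mice from left to right. Psmb5, Psmb6, Psmb7, Psma1 and Psmg1 read higher in every fed array than in the fasted arrays of their genotype. These values still hold the common shift of -0.32, and Psmb6 stayed close to 0 relative to it. The share of all probe sets that separate in this way was not computed. Psmd12 reads 252 to 304 in WT fasted mice, Psmf1 62.3 to 67.3 and Psme3ip1 26.3 to 54.1 in PPARα-null fasted mice, apart from their other groups.

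Of the 4 beta subunits without a cutting site, 1 was called. Psmb3 fell in WT mice through its second probe set (1417052_at), which read 201, 213 and 218 in WT fasted mice, against 340.2, 418 and 341 in WT fed mice. These arrays do not overlap, at -0.48 ± 0.11 relative to the common shift (adjusted p = 0.00755, limma). In PPARα-null mice the same probe set reached -0.26, and the first probe set gave -0.19 in PPARα-null mice and -0.31 in WT mice, neither called. Psmb1, Psmb2 and Psmb4 lay between -0.11 and 0.14 in PPARα-null mice and between -0.14 and 0.05 in WT mice on their first probe sets.

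In the base of the regulatory particle, all 6 ATPase genes, Psmc1 to Psmc6, lay below 0 upon fasting in both genotypes, with medians of -0.18 in PPARα-null mice and -0.16 in WT mice. Psmc6 in PPARα-null mice was the only call among them, at -0.40 ± 0.09 (adjusted p = 0.0028, limma), and it was at -0.11 in WT mice. Its second probe set (1417770_s_at) gave -0.47 and -0.26 and was not called. That call ended without PPARα-null fasted replicate 1 (-0.34) or PPARα-null fed replicate 2 (-0.36), and when each array was centred on its own median (-0.34). The scaffold subunits Psmd1 and Psmd2 gave -0.11 and -0.26 in PPARα-null mice and -0.25 and 0.01 in WT mice, with no call. Psmd4, the ubiquitin receptor of the base, read 635, 606 and 605 in PPARα-null fasted mice, 795, 772 and 740.4 in PPARα-null fed mice, 577, 542 and 585 in WT fasted mice and 644, 725 and 686 in WT fed mice. Fed arrays lay above fasted arrays by about the common shift, and the relative differences were -0.01 in PPARα-null mice (95% confidence interval -0.17 to 0.16) and 0.05 in WT mice (-0.12 to 0.21).

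Of the 8 lid genes, 6 lay above 0 in PPARα-null mice upon fasting (median 0.07) and 6 below 0 in WT mice (median -0.16). Psmd14, the enzyme that cuts ubiquitin off the substrate, was the only lid gene called upon fasting. Psmd14 read 412, 369.9 and 368 in PPARα-null fasted mice, 509.7, 475 and 603 in PPARα-null fed mice, 258, 333 and 289 in WT fasted mice and 416, 593 and 511 in WT fed mice. In WT mice the arrays did not overlap and the relative difference was -0.47 ± 0.14 (adjusted p = 0.0285, limma), whereas PPARα-null mice gave -0.15 ± 0.14. The difference between the responses, 0.32 ± 0.20, did not pass (adjusted p = 0.259). The WT call ended when any of WT fasted replicates 1 and 3 and WT fed replicates 2 and 3 was left out, with values from -0.46 to -0.35.

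On their first probe sets, the 2 expressed assembly chaperones of the core fell in PPARα-null mice, further than any subunit called there. The second probe set of Psma5 came within the error of Psmg1, and the second probe set of Psmg2 fell less than it. Psmg1 and Psmg2 form a dimer that guides the alpha ring into place. Psmg1 read 54.1, 48.0 and 48.0 in PPARα-null fasted mice, 104, 103 and 109.9 in PPARα-null fed mice, 68.8, 72.6 and 44.3 in WT fasted mice and 106, 107 and 102 in WT fed mice. All fasted arrays lay below all fed arrays, at -0.76 ± 0.15 in PPARα-null mice and -0.48 ± 0.15 in WT mice relative to the shift (adjusted p = 8.26e-04 and 0.0337, limma). WT fasted replicate 3 was lowest, and without it the WT difference was -0.26 and not called, while the WT call also ended without any of the WT fed arrays (-0.50 to -0.47). Psmg2 read 38.8, 60.0 and 56.9 in PPARα-null fasted mice, 124, 119 and 96.6 in PPARα-null fed mice, 59.5, 72.2 and 68.0 in WT fasted mice and 152, 98.8 and 84.1 in WT fed mice. Its groups did not overlap within PPARα-null mice, where the difference was -0.83 ± 0.21 (adjusted p = 0.0046, limma), and its second probe set (1448212_at) was also called there, at -0.52. In WT mice the first probe set of Psmg2 reached -0.39 ± 0.21 and was not called, with WT fed replicate 1 high. Without PPARα-null fasted replicate 1 its call in PPARα-null mice ended at -0.63. The call of the second ended without PPARα-null fasted replicate 2 (-0.48) or 3 (-0.44). In each of these fits the other probe set was still called. The base chaperones Psmd5 and Psmd10 gave 0.12 and -0.01 in PPARα-null mice and 0.30 and 0.08 in WT mice, none called.

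Of the activators that cap the core in place of the 19S particle, Psme1 and Psme3 were each called in a different genotype. Psme1, the interferon-inducible activator subunit, read 984, 1021 and 980.3 in PPARα-null fasted mice, 1725, 1712 and 1793 in PPARα-null fed mice, 1199, 1323 and 1147 in WT fasted mice and 1500.0, 1832 and 1714 in WT fed mice. PPARα-null fasted arrays lay below all other arrays, at -0.49 ± 0.09 upon fasting (adjusted p = 5.05e-04, limma), whereas WT mice gave -0.14 ± 0.09. The difference of the responses was -0.35 ± 0.13 and did not pass (adjusted p = 0.0617). Psme3, the nuclear activator, read 54.9, 69.6 and 53.9 in PPARα-null fasted mice, 54.3, 96.3 and 99.8 in PPARα-null fed mice, 58.4, 64.5 and 43.0 in WT fasted mice and 105, 99.3 and 114 in WT fed mice. The WT groups did not overlap, at -0.64 ± 0.21 (adjusted p = 0.0445), while PPARα-null fed replicate 1 read as low as the fasted arrays and PPARα-null mice gave -0.13 ± 0.21. The call in WT mice ended in 7 of the 12 fits that left out 1 array, with values from -0.69 to -0.47, and the second probe set (1418079_at) gave 0.24. Psme4, an activator best known from testis and DNA repair, read 274, 259 and 246 in PPARα-null fasted mice, 342, 321 and 352 in PPARα-null fed mice, 235, 238 and 262 in WT fasted mice and 323, 328 and 349 in WT fed mice. It followed the common shift, at -0.07 in PPARα-null mice and -0.13 in WT mice.

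Psmf1 rose in fasted PPARα-null mice. Its product was named for inhibiting the 20S core in the test tube. Psmf1 read 67.3, 62.3 and 66.6 in PPARα-null fasted mice, 52.8, 47.4 and 47.9 in PPARα-null fed mice, 46.9, 46.7 and 47.6 in WT fasted mice and 55.3, 54.7 and 46.5 in WT fed mice. Only the PPARα-null fasted arrays stood apart, above all others even before the shift was removed, and the relative difference upon fasting was 0.72 ± 0.09 in PPARα-null mice (adjusted p = 2.03e-05, limma) and 0.17 ± 0.09 in WT mice. The difference of these responses passed, at 0.55 ± 0.12 (adjusted p = 0.00701), and so did PPARα-null against WT in fasted mice, at 0.47 ± 0.09 (adjusted p = 9.28e-04). Both calls held with any 1 array left out and ended with PPARα-null fasted replicates 1 and 3 both left out (0.48 and 0.41), where 1 array remained in that group. In that setting 2 genes passed the difference of the responses, where 18.9% of all genes did. The other expressed probe set of the gene, 1424370_s_at, read 13.5, 25.6 and 16.6 in PPARα-null fasted mice, against 21.2, 25.2 and 20.01 in PPARα-null fed mice, and its relative difference of 0.01 ± 0.20 did not show the rise.

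The largest change carried a proteasome name but was not of a subunit. Psme3ip1, whose product binds the activator Psme3, read 31.9, 54.1 and 26.3 in PPARα-null fasted mice, 202, 175 and 194 in PPARα-null fed mice, 115, 114 and 142 in WT fasted mice and 150.2, 152 and 189.7 in WT fed mice. The PPARα-null fasted arrays lay far below the other 9, at -2.10 ± 0.21 upon fasting in PPARα-null mice (adjusted p = 4.29e-06, limma), against -0.09 ± 0.21 in WT mice. The difference of the responses was -2.01 ± 0.29 (adjusted p = 5.05e-04), and in fasted mice PPARα-null minus WT was -1.79 ± 0.21. These calls held under every alternative that was run. The gene has 1 probe set, so no other measurement on the array bears on it.

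In the difference of the fasting responses, 3 of 41 genes were called, where 29.1% of all genes were called (10.9% higher and 17.7% lower). They were Psmf1 and Psmd12 higher and Psme3ip1 lower in PPARα-null mice. Psmd12, a scaffold subunit of the lid, read 362, 413 and 352 in PPARα-null fasted mice, 409.6, 427 and 405 in PPARα-null fed mice, 252, 272 and 304 in WT fasted mice and 386, 410.1 and 407 in WT fed mice. The WT fasted arrays were lowest and did not overlap with any other group, while the PPARα-null fasted arrays overlapped with both fed groups as deposited. With the common shift removed, the WT fasted arrays were still lowest and the PPARα-null fasted arrays lay above all fed arrays. The difference of the responses was 0.40 ± 0.13 (adjusted p = 0.0398, limma), with 0.17 ± 0.09 in PPARα-null mice and -0.23 ± 0.09 in WT mice. That call was close to the threshold and ended in 9 of the 12 fits that left out 1 array, at 0.33 to 0.42. On 1 probe set per gene, all 8 lid genes had a difference above 0, from 0.05 to 0.44 with a median of 0.19. All genes had a median of -0.06. On other expressed probe sets of Psmd11 (1429370_a_at) and Psmd13 (1422459_a_at) the difference lay below 0.

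Between the genotypes in fasted mice, 7 of 41 genes were called, 5 higher and 2 lower in PPARα-null mice, where 36.8% of all genes were called (16.4% higher and 19.7% lower). The 8 lid genes all lay above 0, from 0.07 to 0.48 with a median of 0.25, and 3 of them were called. All 41 genes had a median of 0.11, or 0.035 without PPARα-null fasted replicate 2, and all genes on the array -0.01. With only PPARα-null fasted replicate 2 kept in that group, 8 genes were called, 7 higher and 1 lower, where 28% of all genes were called (12.8% higher and 14.7% lower). Psmd3, a lid subunit, read 187, 180.0 and 151 in PPARα-null fasted mice, against 121, 138 and 111 in WT fasted mice. The groups did not overlap, at 0.48 ± 0.11 (adjusted p = 0.00367, limma). Psmd12, with its values given above, differed by 0.45 ± 0.09 (adjusted p = 0.00186), and without PPARα-null fasted replicate 2 by 0.38, just short of the fold required. Psmd11, which clamps the lid to the core, was called through 1440253_at, which read 471, 536 and 483 in PPARα-null fasted mice, against 386, 372 and 324 in WT fasted mice. That difference of 0.46 ± 0.09 stood beside 0.18 and -0.07 on its 2 other expressed probe sets. Psmd9, a base chaperone, read 17.2, 23.7 and 21.3 in PPARα-null fasted mice, against 14.4, 13.4 and 12.6 in WT fasted mice. It differed by 0.62 ± 0.16, but it entered the test only because the PPARα-null fasted group, where it was high, exceeded 20. Its call, 1 of the 5 higher, was thus selected by the same values. Without PPARα-null fasted replicate 2 it fell below the filter and was not tested. Psmf1 and Psme3ip1 made up the rest of the calls together with Psme4, which was called lower through its probe set 1426824_at. That probe set read 44.3, 41.9 and 33.3 in PPARα-null fasted mice, against 52.8, 66.2 and 53.0 in WT fasted mice. It gave -0.53 ± 0.13, where the 2 other probe sets of Psme4 gave 0.09 and 0.08, and the call ended with PPARα-null fasted replicates 1 and 3 both left out (-0.44). These comparisons between genotypes do not use the common shift.

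**Figure D3:**
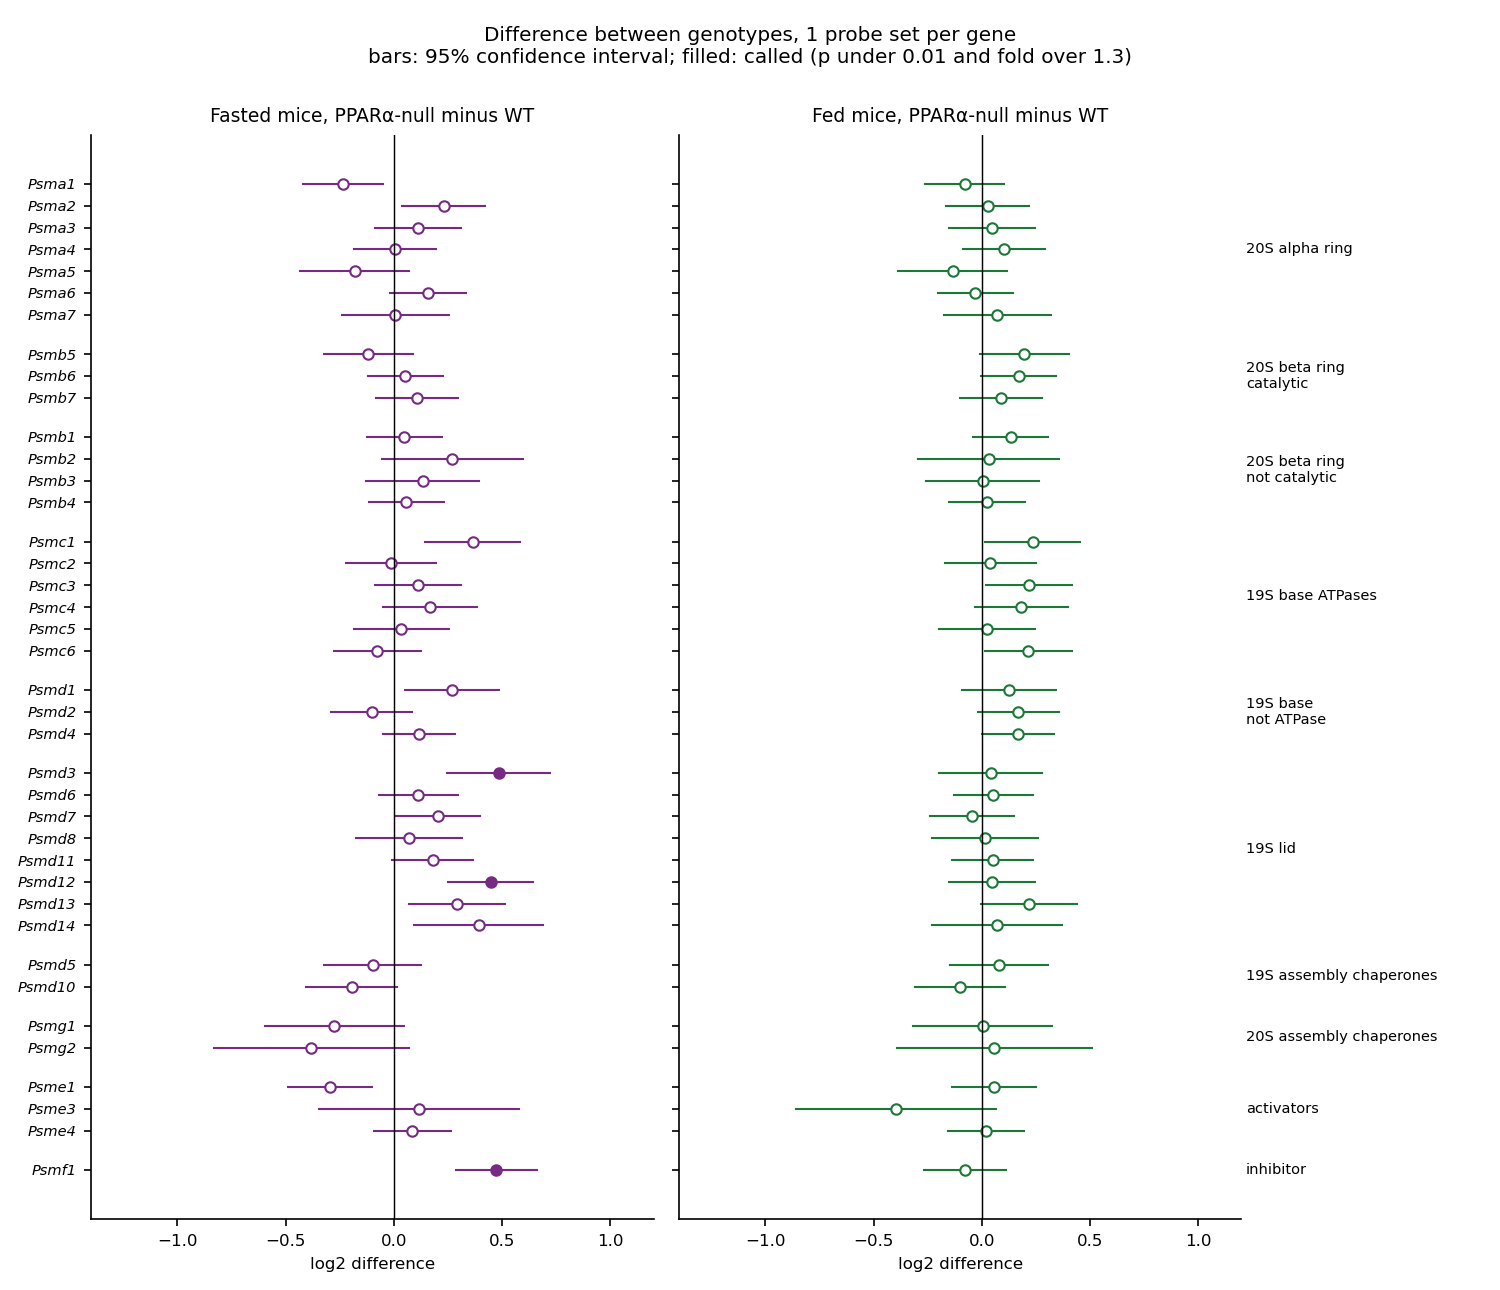
Log2 difference of PPARα-null minus WT mice for 1 probe set per gene, in fasted mice (left) and fed mice (right), with genes grouped by role. Points are estimates of the fit with 95% confidence intervals, filled where called. In fasted mice the 8 lid genes lie between 0.07 and 0.48, and Psmd3, Psmd12 and Psmf1 are filled, whereas in fed mice no drawn probe set is filled. Psmd9, at 0.62 in fasted mice, and Psme3ip1, at -1.79, are not drawn.

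In fed mice the genotypes differed little. A single gene of 40 was called, where 3.44% of all genes were called (1.42% higher and 2.02% lower). Psmd13, a lid subunit, was called through 1422459_a_at, which read 259, 241 and 223 in PPARα-null fed mice, against 146, 196 and 186 in WT fed mice. The groups did not overlap and the difference was 0.47 ± 0.13, but the adjusted p was 0.157 (limma), and the call ended without PPARα-null fed replicate 1 (0.41) or WT fed replicate 1 (0.34). The probe set of Psmd13 with the higher mean gave 0.22 ± 0.10. By an adjusted p under 0.05 (limma), 0 proteasome genes and 0.725% of all genes differed in fed mice. Before adjustment, 5 of the 40 had p under 0.05. The share of all genes at that threshold was not computed, so this count has no background. The median of the 40 genes was 0.05, as for all genes. The 6 ATPase genes lay between 0.02 and 0.24 with a median of 0.20, none called. Psmb5, Psmb6 and Psmb7 gave 0.20 ± 0.10, 0.17 ± 0.08 and 0.09 ± 0.09.

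The small shift of the family below the other genes upon fasting was compared with genes of like intensity. Among probe sets that read 500 to 1000 in WT fed mice, the 15 proteasome probe sets had a median of -0.15 in PPARα-null mice and -0.12 in WT mice, where all 1016 probe sets had -0.04 and 0.0068. Above 1000, the 8 proteasome probe sets had -0.17 and -0.15, where all 1077 had 0.05 and 0.07. Between 200 and 500, the 19 had -0.10 and -0.12, where all 1705 had -0.07 and -0.0045. Between 100 and 200, the 8 had -0.12 and -0.20, where all 1344 had -0.09 and -0.0046. The order was the opposite in the dimmer bins, where the 4 between 50 and 100 had -0.05 and 0.12, against -0.07 and 0.03 for all 1505, and the 4 between 20 and 50 had 0.07 and 0.19, against 0.03 and 0.07 for all 2723. The median deviation of the 40 genes from their own means, with the shift removed, was -0.08, 0.05 and -0.01 in the PPARα-null fasted arrays, 0.09, 0.09 and 0.12 in the PPARα-null fed arrays, -0.17, -0.04 and -0.06 in the WT fasted arrays and -0.06, 0.10 and 0.04 in the WT fed arrays. PPARα-null groups did not overlap by this measure, and WT fed replicate 1 lay among the WT fasted arrays. Only the 1 constant was removed here, so the measure also holds whatever still differed between whole arrays. With each array centred on its own median instead, the median in PPARα-null mice was -0.046, with 23 of 40 genes below 0. The separation is therefore not read as particular to the proteasome genes. Of 15 genes with several expressed probe sets, the sign differed between them in 4 genes in PPARα-null mice and 6 in WT mice, with no opposite calls.

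**Figure D4:**
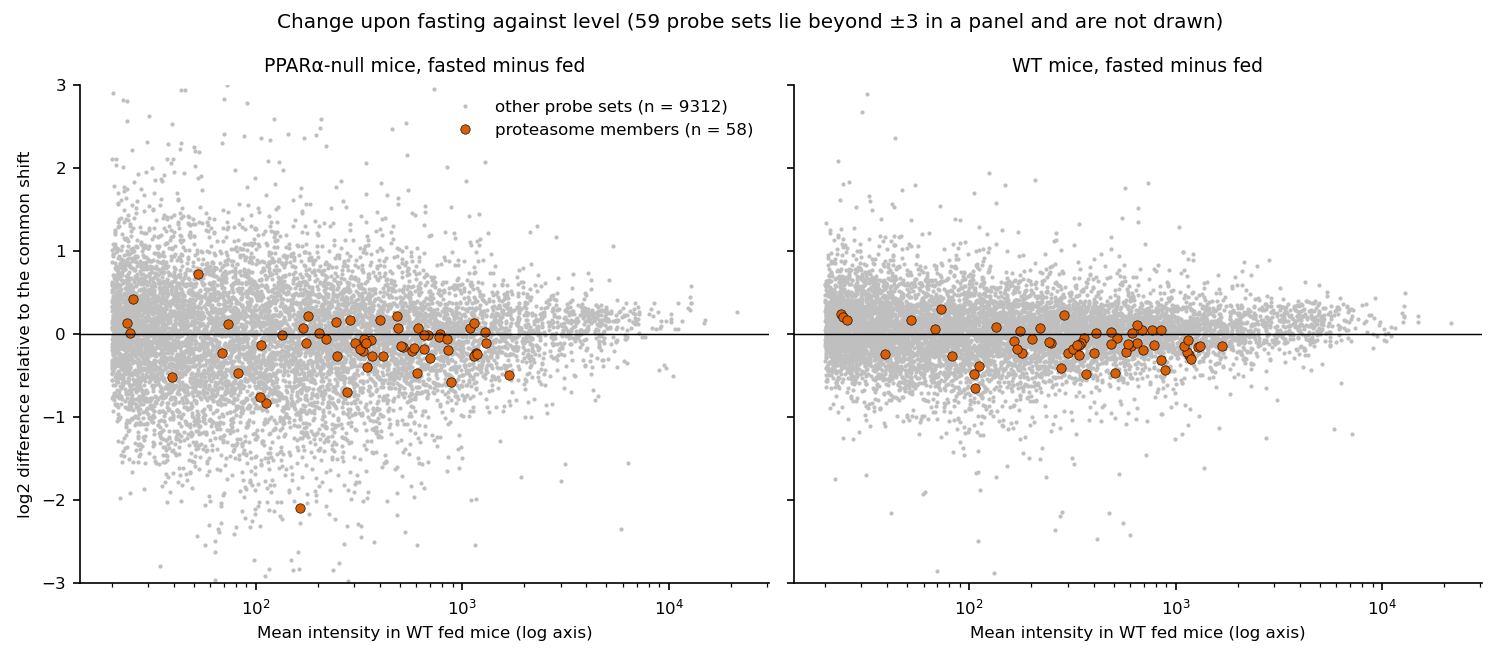
Log2 difference of fasted minus fed mice, relative to the common shift, against the mean intensity in WT fed mice (log axis), in PPARα-null mice (left) and WT mice (right). Orange points are the 58 proteasome probe sets and grey points the 9312 other probe sets, and the 59 that lie beyond 3 in either direction in a panel are not drawn. Most orange points sit close to 0 and a little below it, with Psme3ip1 at -2.10 and Psmf1 at 0.72 apart from them in PPARα-null mice.

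The inducible subunits, which replace the cutting subunits in cells exposed to interferon and in lymphocytes, were left out of the family and are given here for comparison with the constitutive subunits. Psmb9 read 78.0, 118 and 70.1 in PPARα-null fasted mice, 421, 355 and 539 in PPARα-null fed mice, 219.8, 301 and 223 in WT fasted mice and 374, 510.3 and 405 in WT fed mice. Fasted PPARα-null mice were far below all other groups. Upon fasting, Psmb8, Psmb9 and Psmb10 gave -1.29, -2.01 and -0.92 in PPARα-null mice, all called, and -0.52, -0.48 and -0.24 in WT mice, where Psmb8 was called. The differences of the responses passed for all 3, at -0.77 ± 0.19, -1.53 ± 0.29 and -0.68 ± 0.17. Of 7 expressed genes on the list of these subunits and of antigen processing, 4 were called lower upon fasting in PPARα-null mice, where 27.8% of all genes were, and 1 in WT mice, where 9.83% were. Within an array, the log2 ratio of Psmb9 to its constitutive counterpart Psmb6 differed between fasted and fed mice by -2.0 in PPARα-null mice and by -0.59 in WT mice. Only such differences between arrays are read, since probe sets differ in brightness for the same amount of RNA. For Psmb8 over Psmb5 the differences were -0.83 and -0.37, and for Psmb10 over Psmb7 -0.69 and 0.01. An exact two-sided permutation test of 3 against 3 arrays cannot go below p = 0.1, the value it gave for each of these except the last (p = 0.9). Irf1, the transcription factor that induces these subunits, gave -1.54 ± 0.12 in PPARα-null mice and -0.25 ± 0.12 in WT mice. The lymphocyte markers fell in the same arrays, as given above, and their part was not tested.

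**Figure D5:**
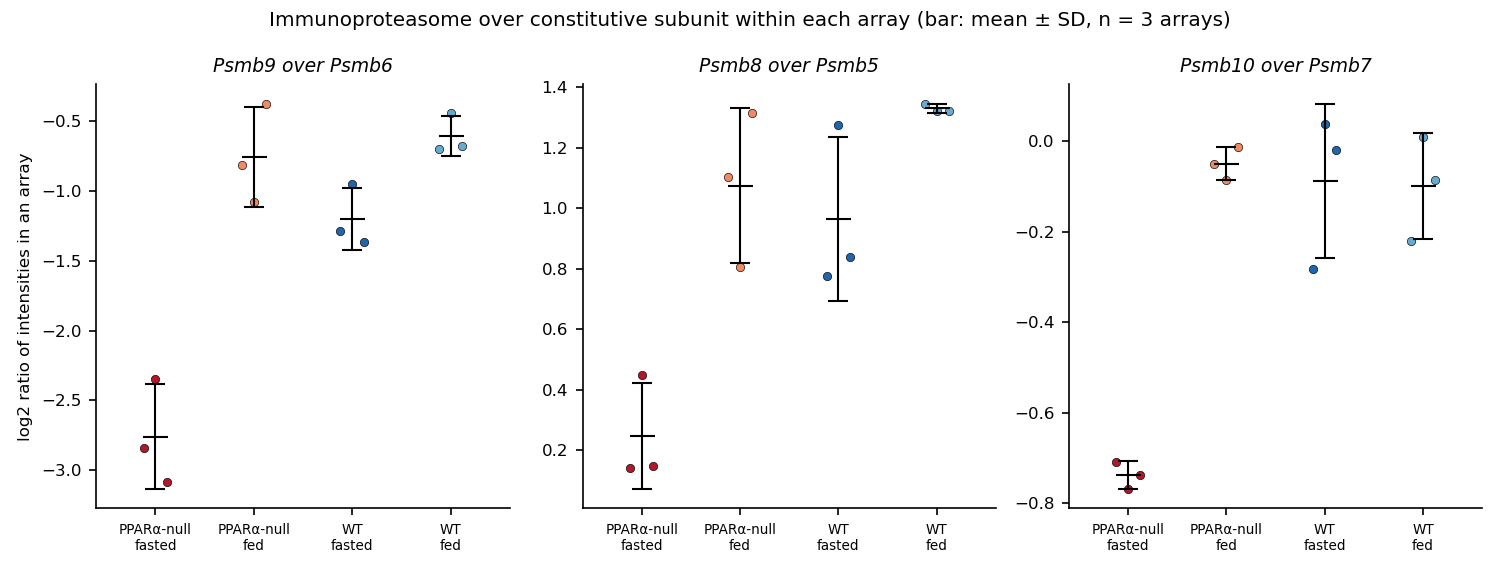
Log2 ratio within each array of an inducible subunit over its constitutive counterpart: Psmb9 over Psmb6, Psmb8 over Psmb5 and Psmb10 over Psmb7. Points are arrays and bars are the mean ± SD of 3 arrays, for PPARα-null fasted, PPARα-null fed, WT fasted and WT fed mice from left to right, and each panel has its own axis. In all 3 panels the PPARα-null fasted arrays lie below every other array.

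Other genes of the pathway were taken from lists of proteins that work with the proteasome. Of 7 expressed proteins bound to the proteasome, 3 were called upon fasting in PPARα-null mice, where 50.4% of all genes were. In WT mice 0 were called, where 22.8% of all genes were. Of the 7, 3 had an unadjusted p under 0.05 in WT mice, a threshold for which the share of all genes was not computed. Pomp, which matures the newly built core, read 518, 577 and 519 in PPARα-null fasted mice, 1171, 1169 and 1016 in PPARα-null fed mice, 609.7, 740.2 and 675 in WT fasted mice and 888, 1057 and 1037 in WT fed mice. PPARα-null fasted arrays were below all others, at -0.74 ± 0.10, against -0.24 ± 0.10 in WT mice, and the difference of the responses passed at -0.50 ± 0.15 (adjusted p = 0.027, limma). Usp14, a deubiquitinase of the base, gave -0.48 and -0.32, called in PPARα-null mice. Txnl1, a thioredoxin-like protein bound to the proteasome, was called higher in PPARα-null mice on 1435235_at (0.43). That probe set read 20.7, 18.3 and 21.7 in PPARα-null fasted mice, against 18.4, 15.1 and 23.0 in PPARα-null fed mice. These values lie near the limit of 20 and overlap as deposited. The Txnl1 probe set 1436947_a_at gave -0.37 and was called lower in the difference of the responses (-0.50). Uchl5, Ecpas, Sem1 and Akirin2 were not called in any comparison.

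Of 7 expressed genes for ubiquitin shuttles and the Vcp segregase, which brings tagged proteins to the proteasome, 3 were called upon fasting in PPARα-null mice, where 50.4% of all genes were, and 2 in WT mice, where 22.8% were. Ufd1, a cofactor of Vcp, was called higher in both on 1432367_a_at, at 1.21 ± 0.10 in PPARα-null mice and 0.61 ± 0.10 in WT mice, with a difference of the responses of 0.60 ± 0.14. Its second probe set, 1418087_at, had deposited means of 42.1 fasted and 36.9 fed in PPARα-null mice. In WT mice these means were 31.2 and 34.4, and the relative difference was below the fold required. Nploc4, its partner, gave 0.31 in PPARα-null mice and -0.26 in WT mice, neither called, and 0.57 ± 0.13 between them, which passed (adjusted p = 0.00714). The shuttle Rad23b was called lower in both genotypes on 1424222_s_at (-0.40 and -0.39), and the shuttle Ubqln1 higher in PPARα-null mice on 1419385_a_at (0.58). The first probe sets of both genes were not called, at -0.09 in PPARα-null mice and -0.18 in WT mice for Rad23b and 0.22 in PPARα-null mice for Ubqln1. Nfe2l1, the factor that raises proteasome genes when proteasome activity falls, gave 0.27 ± 0.11 in PPARα-null mice and 0.22 ± 0.11 in WT mice and was not called in any comparison. Of the enzymes that process it, Ngly1 gave -0.37 and -0.37, below the fold required, and Syvn1 was called lower in PPARα-null mice (-0.73). None of the 6 ubiquitin genes and activating enzymes listed was matched to a probe set of its own, and they were not analysed here.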

How the data were processed

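RNA of whole small intestine from 12 mice was hybridised to Affymetrix MOE430A arrays, 3 biological replicates in each of 4 groups taken from the sample titles. The authors normalised the arrays with GCRMA (version 2.20, per the labels), and the deposited values are intensities on a linear scale, 22690 probe sets by 12 arrays. No source used here says whether all arrays were normalised together. Of the probe sets, 20393 carry 1 gene symbol in the platform annotation, 691 several and 1606 none. The number of arrays limits the precision, and p-values measure the spread between these animals.

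Intensities were turned to log2 and fitted with limma 3.58.1 in R 4.3.3 as 4 group means over all 12 arrays. The median fasted minus fed difference of the 9370 probe sets with a mean over 20 in WT fed mice was removed from fasting contrasts as 1 constant. It was -0.28 in WT mice alone and -0.33 in PPARα-null mice alone. Probe sets with a mean over 20 in WT fed mice were kept for fasting, in either group for genotypes and in any group for the difference of the responses. P-values were adjusted by Benjamini-Hochberg over all kept probe sets. A probe set was called at p under 0.01 and a fold over 1.3, or, for the difference of the responses, with that fold and an adjusted p under 0.05. A gene was called if any of its kept probe sets was called. The fit was tested on simulated data.

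Genes were named if they were cutting subunits, activators, the inhibitor, the ubiquitin receptor, the deubiquitinase or core chaperones, or called. The members and lists were chosen with earlier results of these data known. Alternatives were the shift, normalisation, filters, thresholds, probe set choice, array weights, the groups fitted, the replicate number as a block and leaving out each array.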

Additional observations from a re-analysis of the deposited data

Results flagged for a closer look

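The fasting response differed between PPARα-null and WT mice, by the test of the difference itself, for 3 genes. Psme3ip1 had a difference of -2.01 on the log2 scale (PPARα-null minus WT response), and its 3 PPARα-null fasted arrays were the lowest of the 12. Psmf1 had a difference of 0.55, and its 3 PPARα-null fasted arrays were the highest of the 12. Psmd12 had a difference of 0.40, and its 3 WT fasted arrays were the lowest of the 12. Of all genes tested, 29.1% passed the same test.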

How the results depend on the processing

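None of the 28 calls of single probe sets turned its sign under any alternative run, while values that were not called could: as deposited, 1 of 40 genes lay above 0 in PPARα-null mice and 0 of 40 in WT mice upon fasting. Without removal of the common shift, 26 proteasome genes were called in PPARα-null mice (median -0.42) and 26 in WT mice (median -0.45) upon fasting. With each array centred on its own median, the median in PPARα-null mice was -0.046, the difference of the responses had a median of 0.10 and 6 genes passed it, 5 of them higher. With quantile normalisation 5 genes passed it. With a mean over 100 required, 4 genes were called between genotypes in fasted mice, and by an adjusted p under 0.05 with no fold 14 were, where 46.9% of all genes were. In fed mice the call of Psmd13 ended (0 genes) by an adjusted p with or without the fold, with 1 probe set per gene and without probe sets whose names end in _s_at, _x_at or _a_at. The last setting left 6 calls in PPARα-null mice upon fasting. Neither the share nor the median of all genes was computed under array centring or quantile normalisation. The share of all genes was also not computed with a mean over 100, 1 probe set per gene or the last setting. These counts therefore stand without a background. With PPARα-null fasted replicates 1 and 3 left out, an alternative chosen after seeing the data, 1 array remained in that group, the median in PPARα-null mice was -0.019, and the counts were 9 in PPARα-null mice, 4 in WT mice, 8 between genotypes in fasted mice, 1 in fed mice and 2 for the difference of the responses.

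With each array left out in turn, the counts of called genes ran from 9 to 10 in PPARα-null mice upon fasting, 2 to 6 in WT mice upon fasting, 5 to 9 between genotypes in fasted mice, 0 to 1 in fed mice and 2 to 5 for the difference of the responses. The low counts of WT mice came without WT fasted replicate 1 or 3 (3 genes each) or WT fed replicate 2 (2 genes), and the high counts of the difference of the responses without WT fasted replicate 3 or WT fed replicate 1 (5 each). Among these fits, the share of all genes called was computed only for the low counts of WT mice, as given above. The medians ran from -0.13 to -0.06, -0.17 to -0.10, 0.035 to 0.11, 0.01 to 0.11 and -0.04 to 0.07 in the same order of comparisons. Of 28 calls of single probe sets, 11 ended in at least 1 of these 12 fits and 17 did not. Those 17 include Psmd9 in fasted mice, which fell below the filter without PPARα-null fasted replicate 2 and was not tested there. The replicate numbers mark no shared animal, and of 18 pairs of same-numbered arrays 5 correlated above 0.1. With the replicate number as a block, the counts were 10, 6, 7, 1 and 4 in that order, with no share of all genes computed. The separate fit of only the groups compared could not be had for the difference of the responses, which uses all 4 groups.

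With 3 arrays a group, changes under a fold of 1.3 could not be called whatever their p, and probe sets near an intensity of 20 lie close to background.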
